A study of Homo sapiens with 24 samples.

Results

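The genes described here are the 67 protein-coding collagen, laminin, integrin and matrix glycoprotein genes that reached a mean of at least 1 TPM (a transcript share of the library, corrected for transcript length) in at least 1 of 8 groups of libraries. They were taken by name: COL, A and digits for collagens, LAMA, LAMB or LAMC and a digit for laminins, ITGA or ITGB and a digit for integrins, with ITGAV, FN1, THBS1, SPARC, TNC, FBN1 and VCAN added. The names matched 86 of 19797 protein-coding rows, and the level minimum kept 29 of 44 collagens, 11 of 12 laminins, 21 of 24 integrin names and all 6 glycoproteins. The table holds 60504 rows in all, of which 14553 protein-coding rows reach the same level. The integrin names include ITGB1BP1 and ITGB3BP, which encode proteins that bind integrin tails and are not integrins. By their highest group mean, the genes just inside the minimum were COL6A3 at 1.27 TPM, ITGB7 at 1.40 TPM and COL17A1 at 1.56 TPM. Those just outside were ITGB1BP2 at 0.993 TPM, COL5A3 at 0.95 TPM and ITGA11 at 0.93 TPM.

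RNA was sequenced from human cancer cell lines 48 hours after transfection with small interfering RNA against GCDH (siGCDH) or with control RNA (siControl). The GCDH product, glutaryl-CoA dehydrogenase, acts in mitochondria in the degradation of lysine and tryptophan. The 24 libraries form 8 groups of 3: siGCDH and siControl in A375 batch 2, A375 batch 1, SK-Hep1 and SKBR3. A375 is a melanoma line, SK-Hep1 is labelled as liver cancer and SKBR3 as breast cancer. No other agent or allele is named in the labels, and each group is 1 established line, seeded in triplicate wells. P-values therefore measure the spread between wells, which may be technical. A375 batch 1 was made with a kit that reads the 3′ ends of transcripts, and the 18 other libraries with a kit that reads whole transcripts, so levels were not compared between the kits.

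The extracellular matrix is the protein network that cells secrete and hold on to. Fibrillar collagens and fibronectin build the interstitial matrix between cells, whereas laminins and type IV collagen build the basement membrane, the thin sheet under epithelia and around vessels. Integrins are receptors of an α and a β chain that link these proteins to the cytoskeleton, and tumour cells are known to change both their matrix and their integrins as they move and invade.

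GCDH was lower in the siGCDH libraries of all 4 comparisons, at 3.72 against 20.9 TPM in A375 batch 2, 0.917 against 4.41 TPM in A375 batch 1, 2.76 against 9.41 TPM in SK-Hep1 and 5.94 against 22.5 TPM in the libraries labelled SKBR3. The difference did not pass in A375 batch 1 (limma adjusted p = 0.118). The labelled cell types were checked against marker genes in the siControl libraries. The melanocyte regulator SOX10 had 457 TPM in A375 batch 2, where 5 of 10 melanocyte markers reached 1 TPM. MLANA, PMEL, TYR, TYRP1 and DCT did not. SK-Hep1 had no ALB, the hepatocyte product albumin, in any library, and none of 8 endothelial markers reached 1 TPM, whereas the epithelial keratin KRT19 had 1262 TPM. The libraries labelled SKBR3 had 25.5 TPM of ERBB2, the receptor gene amplified in that line, below the 46.4 TPM of SK-Hep1 and the 32.7 TPM of A375 batch 2, and 0.227 TPM of KRT19. These markers go against the label, and the libraries are called SKBR3-labelled here. In A375 batch 1, 4 rows in a ribosomal RNA region of chromosome 21 took 33.0% of all TPM with siGCDH and 17.1% with siControl, and under 0.1% in every other library. Replicate libraries correlated at 0.912 to 0.930 in A375 batch 1 and at 0.973 to 0.982 in the other groups.

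The lines differed in which matrix genes they expressed before any comparison of siGCDH. Over the siControl libraries of the whole-transcript kit, the highest collagens were COL9A3 (315 ± 12.4 TPM), COL4A2 (151 ± 5.93 TPM) and COL4A1 (63.5 ± 1.05 TPM) in A375, a cartilage type and the 2 main basement membrane chains. In SK-Hep1 they were the interstitial chains COL5A2 (108 ± 2.54 TPM), COL6A2 (88.7 ± 3.84 TPM) and COL3A1 (68.2 ± 4.66 TPM), and in the SKBR3-labelled libraries COL6A1 (37.1 ± 0.529 TPM), COL4A2 (34.4 ± 0.846 TPM) and COL6A2 (30.6 ± 2.25 TPM; all SD, n = 3). COL3A1 and COL1A1, chains of type III and type I collagen, were thus found at a mean of more than 10 TPM in SK-Hep1. COL1A1 also lay above that level in the SKBR3-labelled libraries. In A375, COL3A1 had at most 0.06 TPM and COL1A1 at most 0.53 TPM in a siControl library. COL1A2, the other type I chain gene, was outside the set, with a highest group mean of 0.117 TPM.

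The order of the lines depended on the gene. SPARC, a collagen-binding glycoprotein, was the highest of the 67 genes in A375, at 1413 ± 8.97 TPM, and in SK-Hep1, at 1723 ± 8.61 TPM, but had 36.9 ± 1.05 TPM in the SKBR3-labelled libraries. THBS1, which encodes thrombospondin-1, had 302 ± 15.9 TPM in A375 and 516 ± 11.2 TPM in SK-Hep1, against 0.10 ± 0.147 TPM in the SKBR3-labelled libraries. Fibronectin, FN1, was an SK-Hep1 product at 376 ± 20.3 TPM, with 6.65 ± 1.58 TPM in A375 and 10.2 ± 2.06 TPM in the SKBR3-labelled libraries. Tenascin-C, TNC, ran the other way between these lines, at 193 ± 4.33 TPM in A375, 24.3 ± 4.02 TPM in SK-Hep1 and 0.647 ± 0.278 TPM in the SKBR3-labelled libraries. The proteoglycan gene VCAN was highest in the SKBR3-labelled libraries, at 15.4 ± 1.14 TPM, against 4.17 ± 0.668 TPM in SK-Hep1 and 1.44 ± 0.465 TPM in A375.

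Laminin levels were led by the same 3 widely used chains in every line. LAMC1 had 290 ± 13.6 TPM in A375, 162.5 ± 5.79 TPM in SK-Hep1 and 101 ± 4.30 TPM in the SKBR3-labelled libraries, and LAMB1 had 268 ± 5.30, 165 ± 2.66 and 43.4 ± 4.15 TPM in the same order of lines. LAMA4, an α chain typical of vessels and mesenchyme, had 79.6 ± 3.34 TPM in A375, 0.257 ± 0.22 TPM in SK-Hep1 and 6.54 ± 1.05 TPM in the SKBR3-labelled libraries. ITGB1, the β chain shared by the largest group of integrins, had 275 ± 12.1 TPM in A375, 1056 ± 56.8 TPM in SK-Hep1 and 104.5 ± 4.96 TPM in the SKBR3-labelled libraries. ITGB3, whose product pairs with the αv chain, had 70.8 ± 2.05 TPM in A375, 1.54 ± 0.129 TPM in SK-Hep1 and 0.0833 ± 0.0153 TPM in the SKBR3-labelled libraries.

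**Figure D1:**
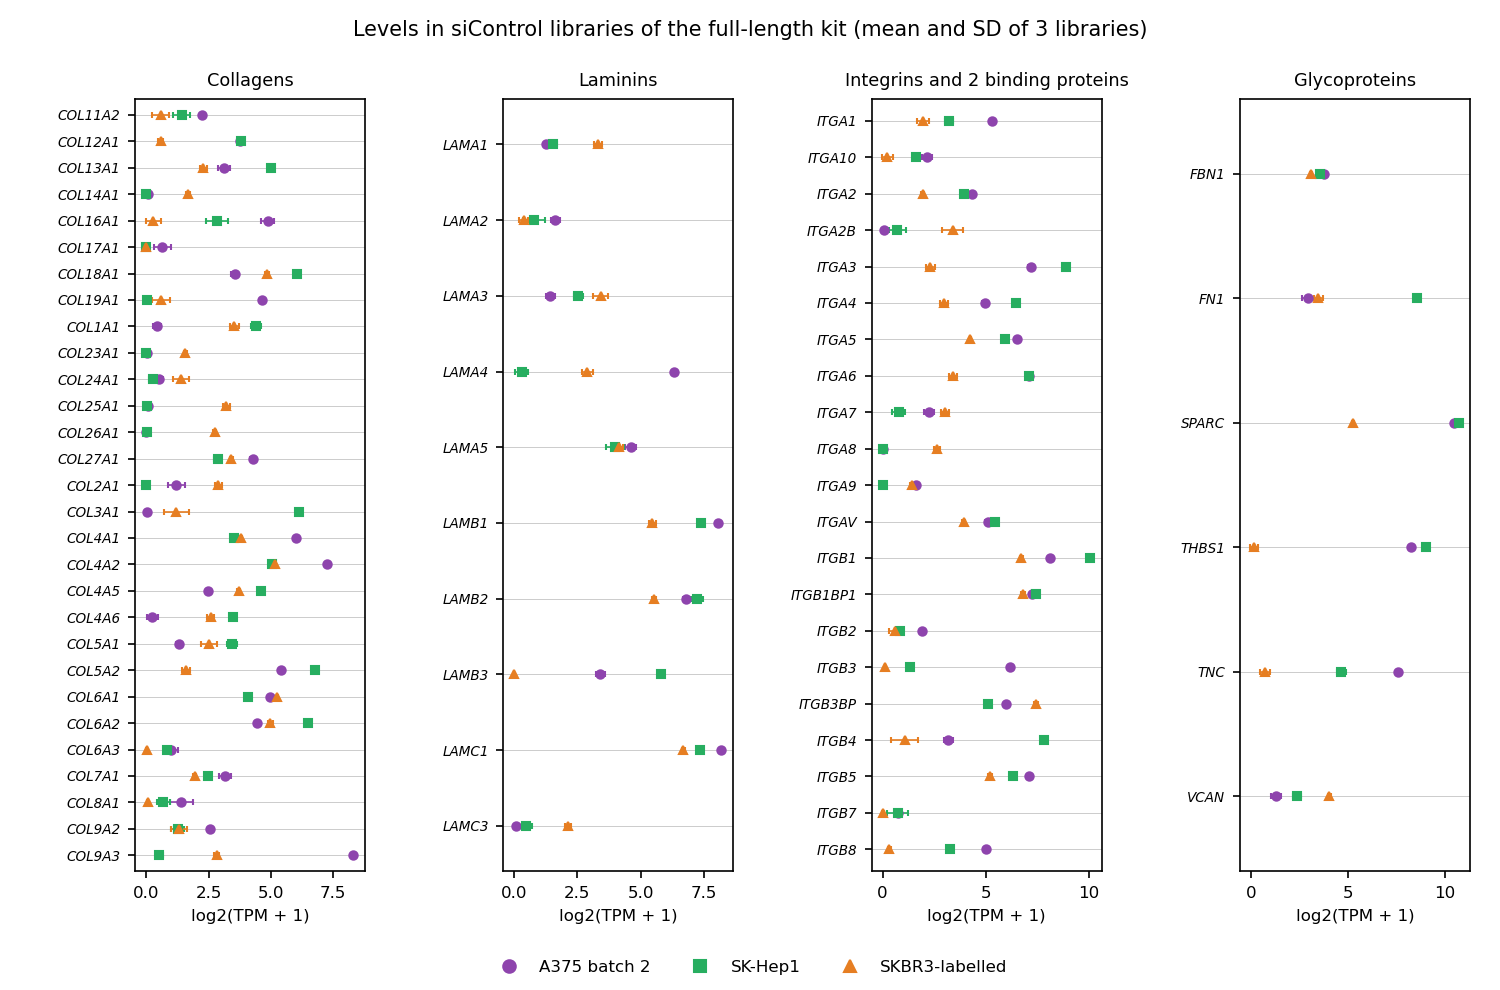
Level of the genes of the set in the siControl libraries of the whole-transcript kit, as log2(TPM + 1); symbols are means of 3 libraries per line and bars are SDs. FN1, COL3A1 and ITGB4 sit highest in SK-Hep1, COL9A3, ITGB3 and LAMA4 in A375, and COL25A1, COL26A1 and ITGA8 in the SKBR3-labelled libraries.

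These differences were tested with limma on log2(TPM + 1), with p-values adjusted over all genes and a call at an adjusted p under 0.05. A375 batch 2 against SK-Hep1 gave calls for 51 of 60 genes tested (28 higher and 23 lower in A375), where 73.5% of all tested genes were called, 45.0% higher and 28.6% lower. A375 batch 2 against the SKBR3-labelled libraries gave 59 of 60 (39 higher and 20 lower, background 74.6%, of which 34.4% higher and 40.2% lower), and SK-Hep1 against the SKBR3-labelled libraries 55 of 60 (37 higher and 18 lower, background 77.4%, of which 28.5% higher and 48.9% lower). Neighbours in the order that did not pass included ITGA6, COL12A1, FBN1 and LAMA1 between A375 and SK-Hep1, and COL4A2, LAMA5, ITGB2 and COL9A2 between SK-Hep1 and the SKBR3-labelled libraries.

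The comparisons of siGCDH with siControl used the 6 libraries of each line and batch, and tested a gene where its mean over them was 1 TPM or more. In A375 batch 2, 54 of the 67 genes were tested and 21 called, 9 higher and 12 lower, where 33.6% of all tested genes were called, 17.9% higher and 15.7% lower. In SK-Hep1, 51 were tested and 39 called, 19 higher and 20 lower (background 55.5%, of which 37.3% higher and 18.2% lower). In the SKBR3-labelled libraries, 51 were tested and 29 called, 24 higher and 5 lower (background 62.1%, of which 47.3% higher and 14.7% lower). In A375 batch 1, 40 were tested and 2 called, both higher (background 7.91%, of which 1.18% higher and 6.73% lower). Read against these shares, SK-Hep1 had more of its genes called lower, 20 of 51, than the 18.2% of all genes, whereas the counts of the other lines lay nearer their backgrounds, and none of these shares was tested.

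The median log2 difference of the tested genes was -0.03 in A375 batch 2, -0.20 in A375 batch 1, 0.12 in SK-Hep1 and 0.32 in the SKBR3-labelled libraries, against 0.02, -0.20, 0.18 and 0.29 over all tested genes in the same order. Scaling libraries to a common median moved the median of all genes to -0.03 in A375 batch 1 and to 0.08 in both SK-Hep1 and the SKBR3-labelled libraries, and differences in these lines are best read against that shift. The split of calls held in A375 and SK-Hep1 but not in the SKBR3-labelled libraries, where it was 16 higher and 10 lower with median scaling and 14 higher and 12 lower with quantile normalization. Genes under the minimum were 13 in A375 batch 2, 27 in A375 batch 1, 16 in SK-Hep1 and 16 in the SKBR3-labelled libraries. In SK-Hep1, 4 genes passed the minimum with a siControl mean under 1 TPM, namely ITGB2, LAMA2, COL6A3 and ITGB7. Tested genes with a siGCDH mean under 1 TPM were 1 in each A375 batch. There were 2 in SK-Hep1 and 1 in the SKBR3-labelled libraries. Where 1 group mean was under 1 TPM, the filter fixed the direction of the difference.

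**Figure D2:**
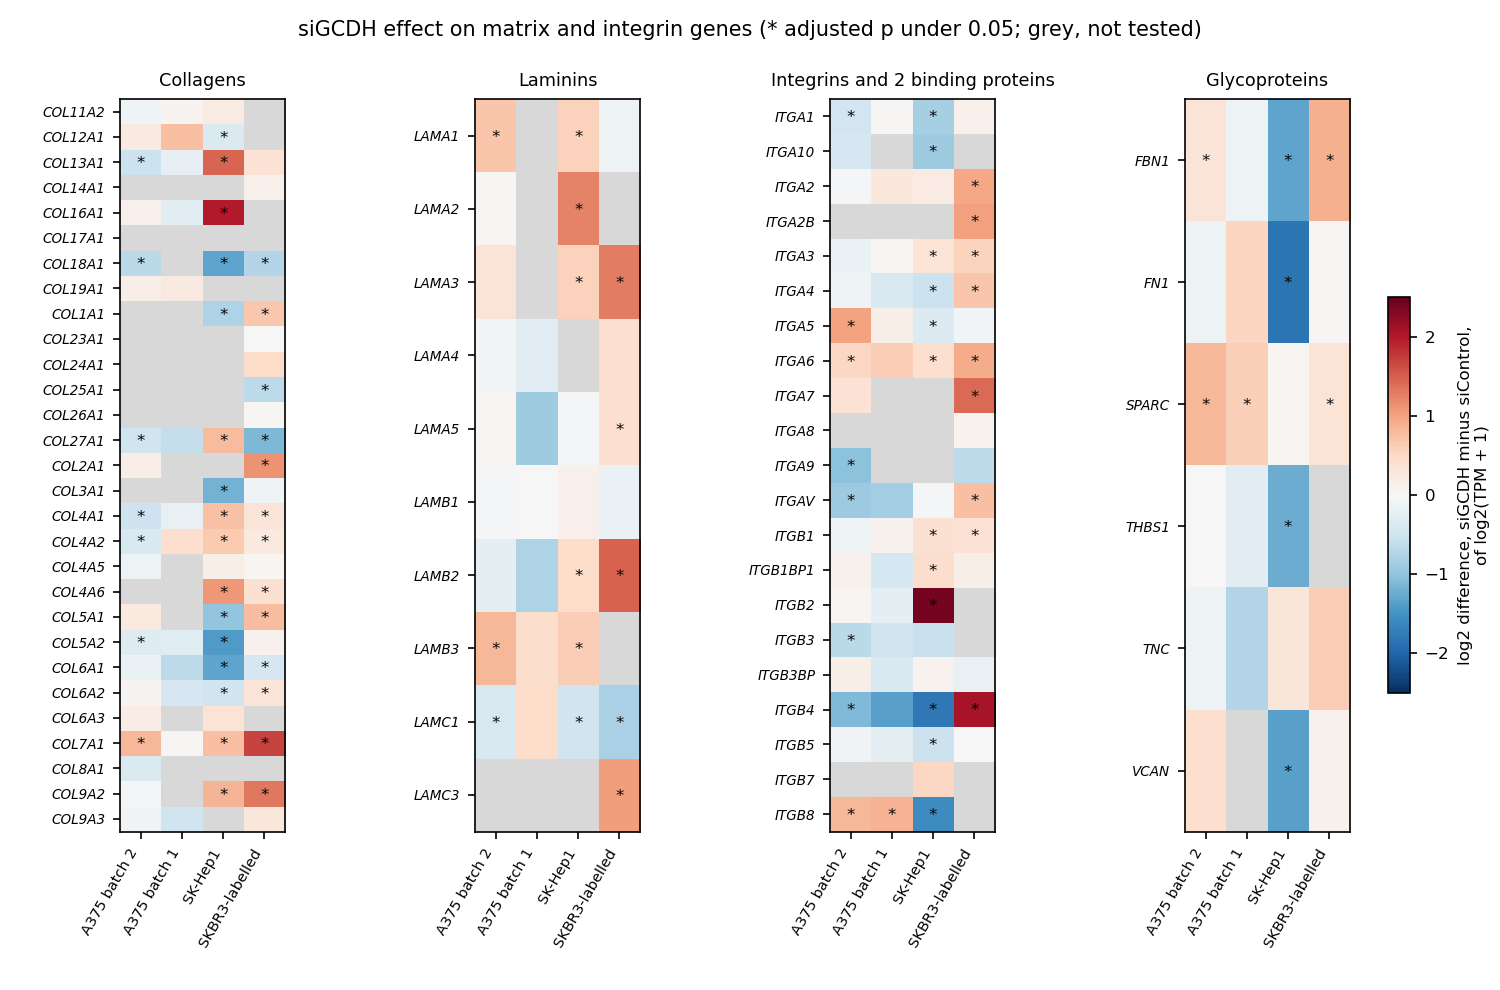
Log2 difference of siGCDH minus siControl, on log2(TPM + 1), for genes of the set in each line and batch; red is higher and blue lower with siGCDH, asterisks mark limma adjusted p under 0.05, and grey cells were not tested. The glycoproteins FN1, THBS1, FBN1 and VCAN are blue in SK-Hep1, and ITGB4 is blue in A375 and SK-Hep1 but red in the SKBR3-labelled column.

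In SK-Hep1, 8 genes of the interstitial matrix, grouped here after their values were seen, were lower with siGCDH. They were COL1A1, COL3A1, COL5A1 and COL5A2, fibril chains of collagen types I, III and V, with fibronectin, the microfibril gene FBN1, VCAN and THBS1. Other matrix genes did not share that direction, since the fibrillar COL27A1 and the fibril-associated COL16A1 rose there (log2 differences 0.79 and 1.99), and SPARC and TNC did not pass (0.04 and 0.30). FN1 had 105, 108 and 105 TPM in the SK-Hep1 siGCDH libraries, against 376, 356 and 396 TPM in the siControl libraries. Every siGCDH library was far under every siControl library (log2 difference -1.82, SE 0.05, limma adjusted p = 4.49e-07), and the siGCDH mean was 105.9 ± 1.60 TPM against 375.9 ± 20.3 TPM with siControl. THBS1, whose product binds matrix and releases latent TGF-β, had 204.5, 227 and 226 TPM with siGCDH, against 527, 505 and 517 TPM with siControl. These groups did not overlap either (log2 difference -1.23, SE 0.05, adjusted p = 1.65e-06).

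COL3A1, the chain of type III collagen, had 28.8, 29.6 and 30.4 TPM with siGCDH, against 73.5, 64.8 and 66.3 TPM with siControl (log2 difference -1.18, SE 0.07, adjusted p = 7.60e-06). COL5A2, a chain of the type V collagen that sets fibril width, had 37.2, 41.6 and 41.3 TPM with siGCDH, against 111, 108 and 106 TPM with siControl (log2 difference -1.41, SE 0.06, adjusted p = 2.17e-06). In both genes the 3 siGCDH libraries lay close together and under all siControl libraries. COL1A1, the main chain of type I collagen, had 12.2, 11.2 and 10.8 TPM with siGCDH, against 22.7, 20.8 and 17.4 TPM with siControl (log2 difference -0.78, SE 0.11, adjusted p = 0.000679). COL5A1 had 4.51 ± 0.865 TPM with siGCDH and 9.90 ± 1.56 TPM with siControl (SD, n = 3 each). FBN1 had 3.12, 4.11 and 3.98 TPM with siGCDH, against 11.1, 10.1 and 11.2 TPM with siControl (log2 difference -1.32, SE 0.12, adjusted p = 8.13e-05), again without overlap. VCAN, low in this line, had 1.04 ± 0.380 TPM with siGCDH and 4.17 ± 0.668 TPM with siControl (log2 difference -1.35, SE 0.20, adjusted p = 0.000854). The fibril-associated COL12A1 and both tested type VI chains with levels above 5 TPM, COL6A1 and COL6A2, were also lower in SK-Hep1, by log2 differences of -0.36, -1.32 and -0.49.

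**Figure D3:**
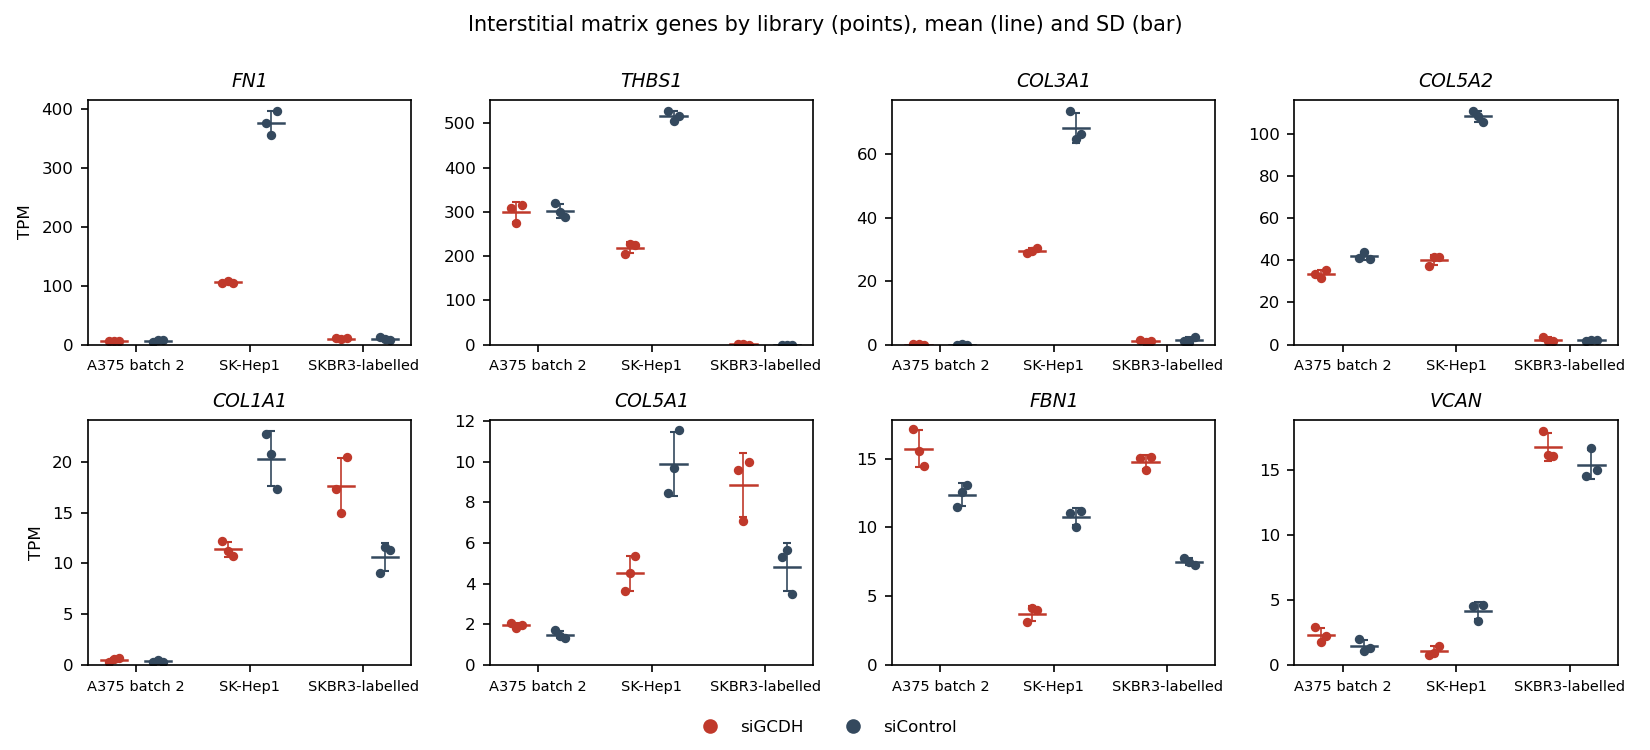
TPM of 8 interstitial matrix genes in each library of the whole-transcript kit, siGCDH in red left of siControl in blue; points are libraries, lines means and bars SDs of 3. The 8 genes were grouped after their falls in SK-Hep1 were seen, so their lower values there follow from that choice. COL1A1, COL5A1 and FBN1 lie the other way in the SKBR3-labelled libraries.

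Most tested genes of a fibroblast marker list were also lower in SK-Hep1. The summed level of 8 fibroblast markers was 56.6 to 62.8 TPM in siGCDH libraries and 204 to 227 TPM in siControl libraries. Of the 6 markers tested, 5 were lower and none higher, where 18.2% of all tested genes were called lower and 37.3% higher. LUM, the collagen-binding proteoglycan lumican, made up most of the siControl sum, at 156 ± 11.3 TPM, and had 23.0 ± 1.14 TPM with siGCDH. Most of the gap between the sums lay in this gene. THY1 had 27.6 ± 3.01 TPM with siGCDH and 35.9 ± 2.72 TPM with siControl. PDGFRA and FAP were under 1 TPM in every SK-Hep1 library, and no marker was at 0 in all 3 libraries of a group. In bulk RNA, fewer cells of a type and less RNA per cell cannot be told apart, and the part of such cells in the falls was not tested.

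In the other lines the same 8 genes had other values. In the SKBR3-labelled libraries COL1A1 had 17.4, 14.95 and 20.5 TPM with siGCDH, against 9.06, 11.6 and 11.3 TPM with siControl (log2 difference 0.67, SE 0.14, adjusted p = 0.00403). COL5A1 had 9.57, 7.06 and 9.97 TPM with siGCDH, against 5.33, 5.66 and 3.49 TPM with siControl (log2 difference 0.77, SE 0.19, adjusted p = 0.00977). Neither gene's groups overlapped, but both calls were lost with quantile normalization. FBN1 had 15.1, 14.2 and 15.1 TPM with siGCDH, against 7.77, 7.48 and 7.30 TPM with siControl (log2 difference 0.89, SE 0.08, adjusted p = 8.28e-05), so that the microfibril gene rose here and fell in SK-Hep1. The difference of the FBN1 effect, SK-Hep1 minus SKBR3-labelled, was -2.21 (SE 0.13, adjusted p = 8.24e-07). COL1A1 and COL5A1 gave differences of -1.45 (SE 0.19, adjusted p = 0.000145) and -1.75 (SE 0.26, adjusted p = 0.000402) in the same test.

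In A375 batch 2 fibronectin and thrombospondin did not pass. FN1 had 5.91, 6.20 and 5.70 TPM with siGCDH, against 4.83, 7.43 and 7.68 TPM with siControl, and THBS1 had 300.1 ± 22.4 TPM with siGCDH and 302 ± 15.9 TPM with siControl, with overlapping groups in both. FBN1 was higher, at 15.7 ± 1.33 TPM with siGCDH and 12.4 ± 0.817 TPM with siControl (log2 difference 0.32, SE 0.09, adjusted p = 0.0354). That call was lost when any of 5 of the 6 libraries was left out, with the replicate block (adjusted p = 0.0828) and with no filter on low values (adjusted p = 0.0688). COL5A2 was slightly lower, at 33.5 ± 1.88 TPM with siGCDH and 41.8 ± 1.82 TPM with siControl (log2 difference -0.31, adjusted p = 0.0101), a call that a joint fit of the 18 whole-transcript libraries did not make. FN1 also did not pass in the SKBR3-labelled libraries, at 10.3 ± 1.45 TPM with siGCDH and 10.2 ± 2.06 TPM with siControl, nor did VCAN, at 16.7 ± 1.09 and 15.4 ± 1.14 TPM.

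On log2(TPM + 1), a scale that understates changes of low genes, FN1 had the largest fall of any gene of the set in SK-Hep1. Its promoter is therefore shown, with the cAMP response element TGACGTCA, which reads the same on both strands, in capitals (RefSeq, GRCh38.p14, chr2:215436069-215436318, minus strand, ending 1 base before the start).
FN1: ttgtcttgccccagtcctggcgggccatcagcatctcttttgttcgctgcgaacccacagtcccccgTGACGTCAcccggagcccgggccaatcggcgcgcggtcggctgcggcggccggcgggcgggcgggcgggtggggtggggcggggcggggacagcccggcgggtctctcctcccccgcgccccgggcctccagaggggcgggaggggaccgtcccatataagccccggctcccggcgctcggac
The element begins 183 bases before the FN1 start. It was found in 1 of 65 promoters (250 bases before to 50 after a start) of the 50 genes of the set that matched the RefSeq table, and in 1.85% of the 35116 promoters of that table. A match describes the letters and does not show a bound site.

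SPARC, whose product binds collagen and modulates its assembly, rose in melanoma cells. It had 2540.3, 2397 and 2581 TPM in the A375 batch 2 siGCDH libraries, against 1404, 1421 and 1415 TPM in the siControl libraries. No siGCDH library came near a siControl library (log2 difference 0.83, SE 0.03, adjusted p = 5.20e-06). A375 batch 1 had 245, 287 and 246 TPM with siGCDH, against 149.6, 180.2 and 182 TPM with siControl (log2 difference 0.60, SE 0.12, adjusted p = 0.0270), also without overlap. The call in batch 1 was lost when any library was left out, at adjusted p between 0.0629 and 0.0752. SK-Hep1, where SPARC was also very high, had 1774 ± 49.4 TPM with siGCDH and 1723 ± 8.61 TPM with siControl, which did not pass. In the SKBR3-labelled libraries it had 47.6 ± 6.61 TPM with siGCDH and 36.9 ± 1.05 TPM with siControl (log2 difference 0.35, adjusted p = 0.0185), a call lost under both scaling alternatives and without 4 of the 6 libraries. TNC passed in no comparison at the main settings, with 177 ± 12.3 TPM with siGCDH and 193 ± 4.33 TPM with siControl in A375 batch 2. It was called higher in SK-Hep1 with the replicate block (adjusted p = 0.0478), with a filter at 5 TPM (adjusted p = 0.0445) and without siControl replicate 2 (adjusted p = 0.00617). A joint fit of the 18 whole-transcript libraries called it higher in the SKBR3-labelled libraries (adjusted p = 0.0297).

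Type IV collagen, the network former of basement membranes, differed between the lines in direction. COL4A1 had 45.7, 40.3 and 45.7 TPM in the A375 batch 2 siGCDH libraries, against 64.7, 63.2 and 62.7 TPM in the siControl libraries (log2 difference -0.53, SE 0.06, adjusted p = 0.000932). COL4A2 had 123, 104.5 and 122 TPM with siGCDH, against 148, 157 and 146 TPM with siControl (log2 difference -0.37, SE 0.07, adjusted p = 0.00587). Both genes were lower in every siGCDH library of A375 batch 2. In SK-Hep1, COL4A1 had 16.7, 18.5 and 18.6 TPM with siGCDH, against 11.5, 10.2 and 9.56 TPM with siControl (log2 difference 0.73, SE 0.10, adjusted p = 0.000432), and COL4A2 had 50.6 ± 1.58 TPM with siGCDH and 32.0 ± 1.09 TPM with siControl (log2 difference 0.65, SE 0.06, adjusted p = 7.72e-05). There both genes rose, without overlap.

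The SKBR3-labelled libraries gave 16.2 ± 0.954 TPM of COL4A1 with siGCDH and 12.8 ± 0.588 TPM with siControl (log2 difference 0.32, adjusted p = 0.0104), and 41.1 ± 1.35 and 34.4 ± 0.846 TPM of COL4A2 (log2 difference 0.25, adjusted p = 0.00597). Both calls were lost under median scaling and quantile normalization, and the COL4A1 difference turned to -0.011 under quantile normalization. The difference of the effect, A375 batch 2 minus SK-Hep1, was -1.26 for COL4A1 (SE 0.11, adjusted p = 4.25e-06) and -1.02 for COL4A2 (SE 0.09, adjusted p = 4.91e-06). In A375 batch 1 neither passed, with 4.59 ± 0.837 TPM of COL4A1 with siGCDH and 5.60 ± 2.28 TPM with siControl, and 17.2 ± 5.14 and 12.4 ± 1.66 TPM of COL4A2.

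COL4A1 and COL4A2 lie head to head on chromosome 13 and are known to share a bidirectional promoter, and they had the same direction of call in all 3 comparisons of the whole-transcript kit, so the stretch between their starts is shown. The RefSeq starts (GRCh38.p14) lie 127 bases apart, at 110307157 for COL4A1 on the minus strand and 110307284 for COL4A2 on the plus strand. The stretch chr13:110307158-110307283 is given on the plus strand, with CCAAT and GGGCGG boxes, on either strand, in capitals.
COL4A1 and COL4A2: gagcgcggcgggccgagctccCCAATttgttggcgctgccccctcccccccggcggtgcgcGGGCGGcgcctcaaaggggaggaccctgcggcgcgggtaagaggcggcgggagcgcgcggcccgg
The CCAAT box begins 105 bases before the COL4A2 start, and its far end lies 26 bases before the COL4A1 start. CCAAT or its complement ATTGG was found in 17 of 65 promoters of the set and in 34.6% of all promoters, and GGGCGG or CCGCCC in 40 of 65 and in 45.0%. The hg38 gene model of COL4A2 in GENCODE 29 (110305812 to 110513209) reaches into that of COL4A1 (110148963 to 110307233), and whether the authors' counting used the strand is not given in the sources used here, so reads in the overlap could be shared.

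The other head-to-head pair of type IV genes within the set did not share its calls. COL4A6, on the X chromosome, had 22.2, 23.7 and 22.4 TPM in the SK-Hep1 siGCDH libraries, against 10.9, 10.5 and 9.45 TPM in the siControl libraries (log2 difference 1.08, SE 0.08, adjusted p = 3.22e-05). Its neighbour COL4A5, whose nearest RefSeq start lies 380 bases away, had 28.1, 25.7 and 24.1 TPM with siGCDH, against 22.6, 25.1 and 22.8 TPM with siControl, and did not pass. COL4A6 thus rose without overlap, while the COL4A5 groups overlapped. In the SKBR3-labelled libraries COL4A6 had 6.87 ± 0.652 TPM with siGCDH and 5.01 ± 0.557 TPM with siControl (log2 difference 0.39, adjusted p = 0.0254), a call lost under both scalings, where quantile normalization turned it to -0.15, and without 4 of the 6 libraries. COL4A5 did not pass there, at 12.8 ± 3.61 and 12.03 ± 0.604 TPM.

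**Figure D4:**
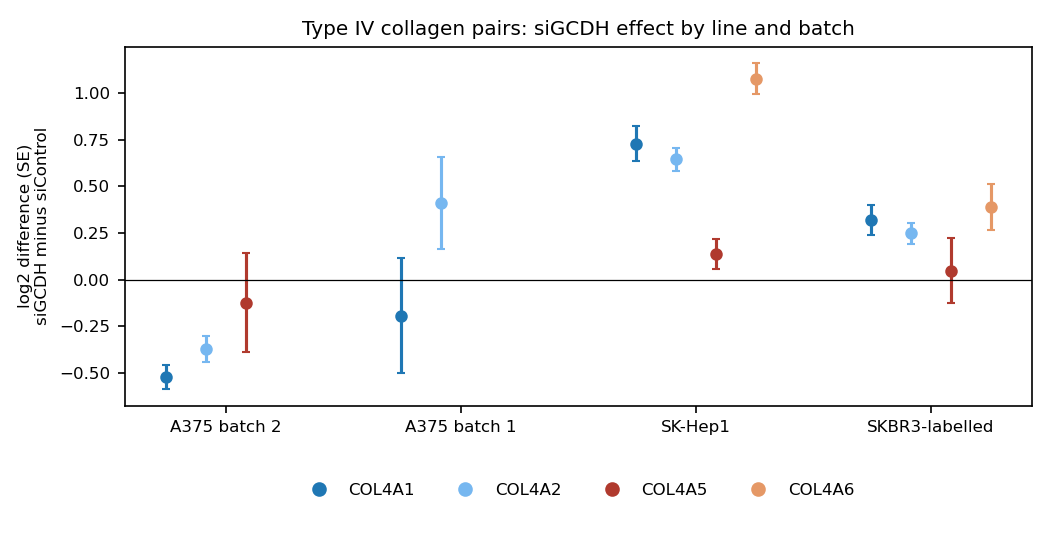
Log2 difference of siGCDH minus siControl, on log2(TPM + 1), with its SE, for the 4 type IV collagen genes of the set in each line and batch. A missing point was not tested. COL4A1 and COL4A2 lie under 0 in A375 batch 2 and above 0 in SK-Hep1, and COL4A6 lies higher than COL4A5 in both lines where it was tested.

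COL18A1 and LAMC1 were the 2 genes of the set called lower in all 3 whole-transcript comparisons. They made up 3.03% of the 66 genes of the set tested in at least 1 of these, against 1.66% of all such genes. COL18A1 is a basement membrane collagen whose cut fragment is endostatin, and LAMC1 is the γ chain of most laminins. COL18A1 had 7.22, 5.90 and 5.82 TPM in A375 batch 2 with siGCDH, against 10.4, 12.1 and 9.66 TPM with siControl (log2 difference -0.68, SE 0.13, adjusted p = 0.00552). In SK-Hep1 it had 26.3, 26.1 and 24.8 TPM with siGCDH, against 66.8, 70.5 and 60.1 TPM with siControl (log2 difference -1.32, SE 0.07, adjusted p = 6.90e-06). The SKBR3-labelled libraries had 14.8, 16.7 and 17.6 TPM with siGCDH, against 28.0, 26.2 and 29.3 TPM with siControl (log2 difference -0.74, SE 0.09, adjusted p = 0.000265). In none of these comparisons did the groups overlap, and in A375 batch 1 COL18A1 was under the minimum.

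LAMC1 had 231, 209 and 222 TPM in A375 batch 2 with siGCDH, against 282, 283 and 306 TPM with siControl (log2 difference -0.40, SE 0.05, adjusted p = 0.00119). SK-Hep1 had 115 ± 8.77 TPM with siGCDH and 162.5 ± 5.79 TPM with siControl (log2 difference -0.50, SE 0.06, adjusted p = 0.000365), and the SKBR3-labelled libraries 58.3 ± 10.3 and 101 ± 4.30 TPM (log2 difference -0.80, SE 0.12, adjusted p = 0.000781). The groups were apart in each. A375 batch 1 had 106, 115 and 82.7 TPM with siGCDH, against 76.1, 77.7 and 64.1 TPM with siControl, the other way round but not passing (log2 difference 0.47, adjusted p = 0.127), and the effects of the batches differed by -0.86, batch 2 minus batch 1 (SE 0.17, adjusted p = 0.0163). LAMB1, the chain that partners it in many laminins, passed in no comparison at the main settings, with 263 ± 8.19 TPM with siGCDH and 268 ± 5.30 TPM with siControl in A375 batch 2. With median scaling LAMB1 was called lower in the SKBR3-labelled libraries (log2 difference -0.39, adjusted p = 0.0189). Without siGCDH replicate 1 it was called higher in SK-Hep1 (log2 difference 0.14, adjusted p = 0.0396).

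In epithelia, the integrin of ITGA6 and ITGB4 sits in hemidesmosomes and binds a laminin that holds the LAMA3 and LAMB3 chains, to which anchoring fibrils of COL7A1 attach. COL7A1 and ITGA6 were the 2 genes of the set called higher in all 3 whole-transcript comparisons. They made up 3.03% of the 66 genes of the set tested in at least 1 of these, against 3.83% of all such genes. COL7A1 had 13.6, 16.3 and 15.4 TPM in A375 batch 2 with siGCDH, against 6.72, 9.72 and 7.83 TPM with siControl (log2 difference 0.83, SE 0.14, adjusted p = 0.00341). SK-Hep1 had 7.77, 7.12 and 10.2 TPM with siGCDH, against 4.96, 4.18 and 4.37 TPM with siControl (log2 difference 0.75, SE 0.15, adjusted p = 0.00319). The largest change was in the SKBR3-labelled libraries, with 11.3, 10.95 and 11.6 TPM with siGCDH, against 2.72, 3.01 and 2.76 TPM with siControl (log2 difference 1.68, SE 0.10, adjusted p = 1.44e-05). The groups did not overlap in any of the 3, whereas in A375 batch 1 they did, at 8.25 ± 1.61 and 8.19 ± 2.45 TPM.

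ITGA6 had 208, 186 and 198 TPM in A375 batch 2 with siGCDH, against 138, 136 and 139 TPM with siControl (log2 difference 0.51, SE 0.05, adjusted p = 0.000287). SK-Hep1 had 183 ± 14.5 TPM with siGCDH and 136 ± 5.82 TPM with siControl (log2 difference 0.42, SE 0.07, adjusted p = 0.00109), and the SKBR3-labelled libraries 19.6 ± 1.48 and 9.81 ± 1.498 TPM (log2 difference 0.94, SE 0.12, adjusted p = 0.000445). In A375 batch 1 it had 81.1, 62.6 and 71.0 TPM with siGCDH, against 35.8, 61.9 and 43.4 TPM with siControl, just without overlap but not passing (adjusted p = 0.126).

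Its partner ITGB4 had no common direction. A375 batch 2 had 3.87, 1.79 and 4.59 TPM of ITGB4 with siGCDH, against 9.77, 7.45 and 7.25 TPM with siControl (log2 difference -1.10, SE 0.26, adjusted p = 0.0161), a call lost without siControl replicate 1 (adjusted p = 0.0577) and without the level filter. In SK-Hep1, where it was abundant, ITGB4 had 66.5, 69.1 and 59.9 TPM with siGCDH, against 226, 229 and 226 TPM with siControl (log2 difference -1.79, SE 0.06, adjusted p = 8.44e-07). The SKBR3-labelled libraries had 6.97, 6.92 and 9.46 TPM with siGCDH, against 2.52, 0.71 and 0.52 TPM with siControl (log2 difference 2.06, SE 0.32, adjusted p = 0.00109). Every siGCDH library was under every siControl library in A375 batch 2 and SK-Hep1, and above it in the SKBR3-labelled libraries. The effect in SK-Hep1 minus that in the SKBR3-labelled libraries was -3.85 (SE 0.35, adjusted p = 1.59e-05). The summed level of 12 breast epithelial markers was also lower in SK-Hep1, at 3445 to 3582 TPM with siGCDH and 6361 to 6636 TPM with siControl. Most of that gap lay in the keratins KRT8, at 949 TPM with siGCDH and 2317 TPM with siControl, and KRT18, at 1109 TPM with siGCDH and 2687 TPM with siControl. Of the 8 markers tested there, 5 were lower and 2 were higher, where 18.2% of all tested genes were called lower and 37.3% higher. ERBB2 was higher at 63.8 TPM with siGCDH and 46.4 TPM with siControl, and EPCAM at 13.1 TPM with siGCDH and 8.72 TPM with siControl. KRT19 did not pass, at 1275 TPM with siGCDH and 1262 TPM with siControl. TFAP2B was listed at 0 in every SK-Hep1 library. The part of these markers in the ITGB4 result was not tested.

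LAMB3 and LAMA3, laminin chains of these structures, had calls in the higher direction alone. LAMB3 had 18.7, 18.03 and 17.4 TPM in A375 batch 2 with siGCDH, against 9.13, 11.4 and 8.76 TPM with siControl (log2 difference 0.83, SE 0.11, adjusted p = 0.00120). In SK-Hep1 it had 85.6, 84.5 and 86.3 TPM with siGCDH, against 55.8, 59.2 and 52.3 TPM with siControl (log2 difference 0.61, SE 0.06, adjusted p = 0.000101). LAMB3 was under the minimum in the SKBR3-labelled libraries and listed at 0 in every siControl library there. LAMA3 had 24.4, 22.2 and 29.7 TPM there with siGCDH, against 12.6, 8.98 and 8.29 TPM with siControl (log2 difference 1.28, SE 0.16, adjusted p = 0.000442). LAMA3 was also higher in SK-Hep1 (log2 difference 0.58, adjusted p = 0.00497) and did not pass in A375 batch 2, at 2.48 ± 0.773 TPM with siGCDH and 1.74 ± 0.324 TPM with siControl.

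**Figure D5:**
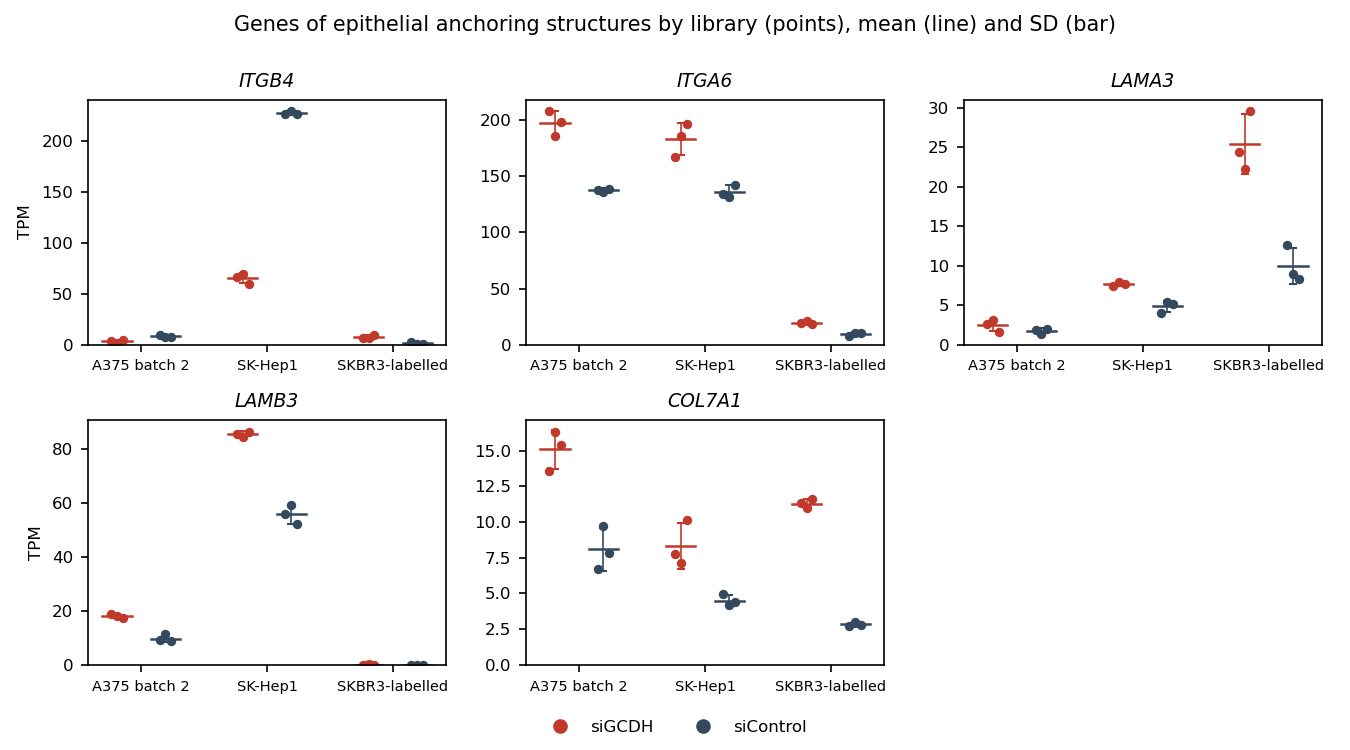
TPM of 5 genes of epithelial anchoring structures in each library of the whole-transcript kit, siGCDH in red left of siControl in blue; points are libraries, lines means and bars SDs of 3. ITGA6 and COL7A1 have every siGCDH library above every siControl library in all 3 lines, whereas ITGB4 lies lower with siGCDH in A375 batch 2 and SK-Hep1.

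LAMA3 and LAMB3 rose together in SK-Hep1, and a promoter of each is shown, chosen because it holds the AP-1 element. The promoters of the LAMB3 starts at 209652425 and 209652329 did not hold it. TGACTCA or its complement TGAGTCA is in capitals (RefSeq, GRCh38.p14, each ending 1 base before the start, LAMA3 at chr18:23872770-23873019 on the plus strand and LAMB3 at chr1:209651375-209651624 on the minus strand).
LAMA3: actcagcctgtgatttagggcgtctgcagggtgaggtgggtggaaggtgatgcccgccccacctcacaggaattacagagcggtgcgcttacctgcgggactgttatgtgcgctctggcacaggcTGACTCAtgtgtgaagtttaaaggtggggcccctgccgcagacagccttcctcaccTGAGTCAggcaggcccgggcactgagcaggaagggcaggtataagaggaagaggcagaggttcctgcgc
LAMB3: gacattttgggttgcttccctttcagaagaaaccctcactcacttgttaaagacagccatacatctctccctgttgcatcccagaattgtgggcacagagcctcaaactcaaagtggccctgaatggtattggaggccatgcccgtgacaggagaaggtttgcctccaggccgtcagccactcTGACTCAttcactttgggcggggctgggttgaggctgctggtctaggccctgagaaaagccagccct
The element begins 125 and 69 bases before this LAMA3 start and 67 bases before this LAMB3 start. It was found in 3 of 65 promoters of the set, the other being ITGA5 at 6 bases before the start, and in 4.95% of all promoters. The AP-1 letters differ from those of the cAMP response element by 1 inserted base, so no match counts for both.

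The remaining laminin chains were called in 1 or 2 lines or in none. LAMB2, the β chain of nerve, muscle and kidney basement membranes, had 130, 112 and 142 TPM in the SKBR3-labelled siGCDH libraries, against 47.1, 42.8 and 46.6 TPM in the siControl libraries (log2 difference 1.47, SE 0.09, adjusted p = 1.59e-05), without overlap. It was also higher in SK-Hep1, at 204 ± 10.3 TPM with siGCDH and 150 ± 25.8 TPM with siControl (log2 difference 0.45, adjusted p = 0.0107), and did not pass in A375 batch 2, at 95.0 ± 4.11 and 111 ± 11.9 TPM. LAMC3 was tested in the SKBR3-labelled libraries alone, where it rose to 8.23 ± 1.95 TPM with siGCDH, against 3.41 ± 0.391 TPM with siControl (adjusted p = 0.00127). LAMA1, an α chain of early basement membranes, was higher at low levels in A375 batch 2 (2.89 ± 0.216 against 1.39 ± 0.101 TPM) and in SK-Hep1 (3.34 ± 0.291 against 1.90 ± 0.349 TPM). The SK-Hep1 call for LAMA1 was lost without siGCDH replicate 2, without siControl replicate 2 or with quantile normalization, and the A375 call without siGCDH replicate 3. LAMA2, the muscle chain, was higher in SK-Hep1 (3.27 ± 1.16 against 0.807 ± 0.593 TPM), where it reached the minimum through the siGCDH libraries. LAMA5 was higher in the SKBR3-labelled libraries (22.9 ± 2.65 against 16.8 ± 1.89 TPM), a call lost under both scalings. LAMA4 passed in no comparison at the main settings. In the SKBR3-labelled libraries it was called higher with the replicate block (adjusted p = 0.0267), in a joint fit of the 18 whole-transcript libraries (adjusted p = 0.0190) and without siGCDH replicate 2 (adjusted p = 0.0419).

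Among the integrins that bind fibronectin and other RGD-bearing ligands, A375 batch 2 had calls in both directions. ITGA5, the α chain of the main fibronectin receptor, had 186, 177 and 185 TPM with siGCDH, against 91.9, 92.4 and 86.2 TPM with siControl (log2 difference 1.01, SE 0.05, adjusted p = 1.41e-05). Every siGCDH library was far above every siControl library, the largest rise of the set in this comparison. ITGAV, the α chain of the vitronectin receptors, had 19.8, 14.6 and 19.4 TPM with siGCDH, against 30.3, 38.0 and 34.6 TPM with siControl (log2 difference -0.91, SE 0.13, adjusted p = 0.00205). ITGB3, its β partner, had 45.7, 40.1 and 46.8 TPM with siGCDH, against 68.5, 71.4 and 72.4 TPM with siControl (log2 difference -0.67, SE 0.07, adjusted p = 0.000447), so that both chains of that receptor were lower, without overlap. ITGB8, a further partner of αv known for activating latent TGF-β, went the other way, at 57.7, 51.2 and 59.0 TPM with siGCDH, against 32.9, 30.8 and 29.8 TPM with siControl (log2 difference 0.82, SE 0.07, adjusted p = 0.000226). ITGB5 and ITGB1 did not pass, ITGB1 having 254.5 ± 12.2 TPM with siGCDH and 275 ± 12.1 TPM with siControl.

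These receptors differed in the other lines. ITGA5 was lower in SK-Hep1, at 40.8, 48.4 and 53.0 TPM with siGCDH, against 61.8, 60.04 and 58.5 TPM with siControl (log2 difference -0.34, SE 0.09, adjusted p = 0.0155), and did not pass in the SKBR3-labelled libraries. The effect on ITGA5 in A375 batch 2 minus that in SK-Hep1 was 1.35 (SE 0.11, adjusted p = 2.47e-06). ITGB8 had 1.96, 2.34 and 2.5 TPM in SK-Hep1 with siGCDH, against 7.98, 8.46 and 9.68 TPM with siControl (log2 difference -1.57, SE 0.13, adjusted p = 5.12e-05), the opposite of A375, with a difference of effects of 2.39 (SE 0.13, adjusted p = 1.45e-07). It was under the minimum in the SKBR3-labelled libraries. ITGAV had 25.8, 24.5 and 24.1 TPM in the SKBR3-labelled libraries with siGCDH, against 13.7, 14.01 and 15.1 TPM with siControl (log2 difference 0.75, SE 0.07, adjusted p = 0.000102), again opposite to A375, and the effects differed by -1.66, A375 batch 2 minus SKBR3-labelled (SE 0.16, adjusted p = 9.30e-06). In SK-Hep1 ITGAV had 42.4 ± 3.88 TPM with siGCDH and 43.1 ± 1.82 TPM with siControl, with overlapping groups.

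ITGB1 was higher in SK-Hep1, at 1290, 1395 and 1457 TPM with siGCDH, against 1035, 1013 and 1120.3 TPM with siControl (log2 difference 0.39, SE 0.06, adjusted p = 0.000707), and in the SKBR3-labelled libraries, at 134.5 ± 5.05 and 104.5 ± 4.96 TPM (log2 difference 0.36, SE 0.05, adjusted p = 0.000728). The call in the SKBR3-labelled libraries was lost with median scaling. ITGA3, an α chain for laminins that pairs with β1, was higher in SK-Hep1 as well, at 599 ± 8.48 TPM with siGCDH and 475 ± 14.2 TPM with siControl (log2 difference 0.33, SE 0.04, adjusted p = 0.000168). In the SKBR3-labelled libraries it had 6.31 ± 1.12 TPM with siGCDH and 3.997 ± 0.703 TPM with siControl, a call lost under both scalings, without the filter and without siGCDH replicate 3 or siControl replicate 1. ITGA7, a further laminin receptor best known from muscle, had 21.04, 19.8 and 21.1 TPM there with siGCDH, against 8.27, 6.90 and 6.23 TPM with siControl (log2 difference 1.42, SE 0.11, adjusted p = 3.86e-05), with the groups well apart.

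The collagen-binding chains ITGA1, ITGA2 and ITGA10 gave few calls. ITGA1 was lower in A375 batch 2, at 27.9 ± 4.10 TPM with siGCDH and 39.1 ± 1.63 TPM with siControl (adjusted p = 0.0122), and in SK-Hep1, at 4.27 ± 0.883 and 8.30 ± 1.16 TPM (adjusted p = 0.00317). ITGA10 was lower in SK-Hep1, at 0.683 ± 0.0404 and 2.11 ± 0.236 TPM (adjusted p = 0.00541). It reached the minimum through the siControl libraries alone, so that its difference there had to be negative. ITGA2 was higher in the SKBR3-labelled libraries, at 6.55 ± 0.408 TPM with siGCDH and 2.85 ± 0.170 TPM with siControl (log2 difference 0.97, adjusted p = 0.000310). ITGA4, a chain known from white blood cells that binds VCAM-1 and fibronectin, was lower in SK-Hep1, at 61.0 ± 6.83 TPM with siGCDH and 89.1 ± 4.41 TPM with siControl (log2 difference -0.54, adjusted p = 0.00116), and higher in the SKBR3-labelled libraries, at 12.02 ± 1.48 and 7.01 ± 1.04 TPM (log2 difference 0.70, adjusted p = 0.00301), where quantile normalization ended the call. ITGA9 was lower in A375 batch 2, at 0.490 ± 0.0889 TPM with siGCDH and 2.03 ± 0.108 TPM with siControl (adjusted p = 0.00740). The same limit holds for ITGA9, which reached the minimum through the siControl libraries alone.

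ITGB2, the β chain of leukocyte integrins, had 8.05, 8.17 and 8.76 TPM in SK-Hep1 with siGCDH, against 0.75, 0.83 and 0.77 TPM with siControl. It reached the minimum through the siGCDH libraries alone (log2 difference 2.39, SE 0.13, adjusted p = 7.27e-06) and had 2.88 ± 0.576 TPM with siGCDH and 2.72 ± 0.156 TPM with siControl in A375 batch 2. ITGA2B, the α chain of the platelet fibrinogen receptor, was tested in the SKBR3-labelled libraries alone, with 23.0, 17.7 and 21.5 TPM with siGCDH, against 7.73, 14.8 and 7.53 TPM with siControl (log2 difference 1.03, adjusted p = 0.00694). ITGB5 was lower in SK-Hep1, at 55.4 ± 9.97 and 80.4 ± 5.39 TPM (adjusted p = 0.00673), and ITGB1BP1 higher there, at 234 ± 6.65 and 172 ± 16.2 TPM (adjusted p = 0.000995). ITGB3BP, ITGA8 and ITGB7 passed nowhere at the main settings. In the SKBR3-labelled libraries ITGB3BP was called lower with median scaling (log2 difference -0.43, limma adjusted p = 0.00275). It was also called lower there with the replicate block (adjusted p = 0.0288) and without siGCDH replicate 2 (adjusted p = 0.0422). ITGA8 was called lower there with quantile normalization (log2 difference -0.47, adjusted p = 0.0467).

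Collagens outside the fibril and basement membrane families also differed. COL16A1, a fibril-associated collagen, had 25.8, 26.6 and 30.5 TPM in SK-Hep1 with siGCDH, against 4.28, 8.79 and 6.20 TPM with siControl (log2 difference 1.99, SE 0.21, adjusted p = 0.000131). COL13A1, a transmembrane collagen, had 83.8, 87.0 and 91.0 TPM there with siGCDH, against 34.4, 30.9 and 29.1 TPM with siControl (log2 difference 1.45, SE 0.07, adjusted p = 4.55e-06). Both rose without overlap. In A375 batch 2 COL13A1 had 5.02 ± 0.957 TPM with siGCDH and 7.70 ± 1.48 TPM with siControl (log2 difference -0.53, adjusted p = 0.0469). That call was lost without any of 5 of the 6 libraries and under 6 other settings, yet the difference of effects, A375 batch 2 minus SK-Hep1, was -1.98 (SE 0.19, adjusted p = 7.70e-06).

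COL27A1, a fibrillar collagen of cartilage, was called in all 3 lines, with 13.0, 13.1 and 12.4 TPM in A375 batch 2 with siGCDH, against 20.2, 17.5 and 17.9 TPM with siControl (log2 difference -0.49, SE 0.08, adjusted p = 0.00391). SK-Hep1 had 10.8, 12.8 and 11.4 TPM with siGCDH, against 6.49, 5.57 and 6.86 TPM with siControl (log2 difference 0.79, SE 0.11, adjusted p = 0.000697). The SKBR3-labelled libraries had 4.33, 2.90 and 4.56 TPM with siGCDH, against 9.22, 9.75 and 10.04 TPM with siControl (log2 difference -1.13, SE 0.15, adjusted p = 0.000560). The gene was thus higher in SK-Hep1 and lower in the other lines, with a difference of effects of 1.92, SK-Hep1 minus SKBR3-labelled (SE 0.19, adjusted p = 2.48e-05).

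In the SKBR3-labelled libraries the cartilage genes COL2A1 and COL9A2 rose. COL2A1 had 17.97, 13.6 and 14.3 TPM with siGCDH, against 6.26, 5.75 and 7.23 TPM with siControl (log2 difference 1.13, SE 0.13, adjusted p = 0.000270), and COL9A2 had 5.31 ± 0.842 and 1.56 ± 0.578 TPM (log2 difference 1.32, SE 0.20, adjusted p = 0.00107). COL9A3, the leading collagen of A375, did not pass there, at 297 ± 3.68 TPM with siGCDH and 315 ± 12.4 TPM with siControl. The transmembrane COL25A1 fell in the SKBR3-labelled libraries to 4.84 ± 0.0321 TPM, against 8.27 ± 0.912 TPM with siControl (log2 difference -0.66, adjusted p = 0.00149).

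Neighbouring type VI genes on chromosome 21 parted in those libraries. COL6A1 had 25.6, 28.0 and 28.6 TPM with siGCDH, against 37.5, 37.3 and 36.5 TPM with siControl (log2 difference -0.43, SE 0.06, adjusted p = 0.000868), whereas COL6A2 had 38.6, 35.8 and 40.4 TPM with siGCDH, against 32.9, 28.4 and 30.4 TPM with siControl (log2 difference 0.32, SE 0.08, adjusted p = 0.00867). The COL6A2 call was lost under both scalings. In SK-Hep1 both were lower, COL6A1 at 5.74 ± 0.499 and 15.8 ± 0.912 TPM and COL6A2 at 62.8 ± 1.52 and 88.7 ± 3.84 TPM. COL17A1, the hemidesmosome collagen, reached the level minimum of the set through the A375 batch 1 siControl group alone (0.97, 3.71 and 0 TPM, against 0 TPM in all 3 siGCDH libraries) and was tested in no comparison. COL19A1, a fibril-associated collagen, had 26.9 ± 1.33 TPM with siGCDH and 24.03 ± 1.69 TPM with siControl in A375 batch 2 and did not pass. COL11A2, a chain of cartilage type XI collagen, had at most 3.76 TPM in a group mean and passed in none of the 3 comparisons that tested it. COL14A1, COL23A1, COL24A1, COL26A1 and ITGA8 were tested in the SKBR3-labelled libraries alone, COL8A1 in A375 batch 2 alone and ITGB7 in SK-Hep1 alone. None of them passed at the main settings. With quantile normalization COL14A1, COL23A1, COL26A1 and ITGA8 were called lower in the SKBR3-labelled libraries (log2 differences -0.55, -0.68, -0.51 and -0.47). COL24A1 was called higher there without siControl replicate 2 (log2 difference 0.64).

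Across the 3 whole-transcript comparisons, 13 genes were called in opposite directions in different lines, namely COL13A1, COL1A1, COL27A1, COL4A1, COL4A2, COL5A1, COL6A2, FBN1, ITGA4, ITGA5, ITGAV, ITGB4 and ITGB8. A further 13 were called in 2 lines in 1 direction, 20 in 1 line and 17 in none, beside the 4 called the same way in all 3. Opposite calls were thus made for 19.7% of the 66 genes tested in at least 1 of the 3 comparisons, where the share was 11.3% of 19105 genes of the whole table. Calls in 2 lines in 1 direction made up 19.7% against 20.8% of all genes, and calls in 1 line 30.3% against 36.5%. Calls higher in all 3 lines made up 3.03% against 3.83%, and calls lower in all 3 lines 3.03% against 1.66%. With median scaling 12 genes had opposite calls (18.2%, against 11.5% of all genes), and with quantile normalization 10 (15.2%, against 11.2%). The SKBR3-labelled calls of COL4A1, COL4A2 and COL6A2 and the A375 call of COL13A1 were lost under both scalings. The SKBR3-labelled calls of COL1A1, COL5A1 and ITGA4 were lost with quantile normalization. The difference of the siGCDH effect was called for 32 of 54 genes between A375 batch 2 and SK-Hep1 (17 higher and 15 lower in A375, background 46.2%, of which 17.4% higher and 28.8% lower), for 31 of 61 between A375 batch 2 and the SKBR3-labelled libraries (9 higher and 22 lower, background 51.4%, of which 14.5% higher and 36.8% lower) and for 37 of 58 between SK-Hep1 and the SKBR3-labelled libraries (11 higher and 26 lower, background 39.5%, of which 14.5% higher and 25.0% lower). With median scaling these splits were 21 and 12, 12 and 17, and 15 and 24, and quantile normalization turned the A375 against SKBR3-labelled split to 16 and 12. Other wide differences included those of ITGB4 (-3.16) and LAMB2 (-1.69) between A375 batch 2 and the SKBR3-labelled libraries. Between A375 batch 2 and SK-Hep1 they included ITGB2 (-2.34), COL16A1 (-1.87) and FBN1 (1.64). ITGB2 also differed between SK-Hep1 and the SKBR3-labelled libraries (1.88).

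A375 batch 1 gave the calls of SPARC, above, and ITGB8, which had 16.3, 15.2 and 18.9 TPM with siGCDH, against 7.84, 9.90 and 8.53 TPM with siControl (log2 difference 0.87, SE 0.20, adjusted p = 0.0400). Both were also higher in batch 2, and the groups did not overlap in either batch. The ITGB8 call in batch 1 was lost when any library was left out, at adjusted p between 0.0746 and 0.116. Between the batches, which differ in kit, the effect differed for 3 of 51 genes (background 5.23%, of which 4.78% higher and 0.447% lower), LAMC1 and, higher in batch 2, ITGA5 (0.87, SE 0.22, adjusted p = 0.0467) and ITGB1BP1 (0.56, SE 0.13, adjusted p = 0.0356). With the ribosomal rows removed, ITGA5 had a difference of 0.59 and ITGB1BP1 of 0.25, and neither passed, whereas LAMC1 was then called higher in batch 1 as well as different between the batches (-1.17).

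Genes that make, cut or bind the matrix were counted in 7 further lists, whose medians are log2 differences to be set beside the medians of all genes above. The counts are to be read against the shares of all tested genes called higher and lower, which were 17.9% and 15.7% in A375 batch 2, 37.3% and 18.2% in SK-Hep1, and 47.3% and 14.7% in the SKBR3-labelled libraries. Of the collagen processing genes, 6 rose and 9 fell of 24 tested in A375 batch 2, 5 rose and 11 fell of 26 in SK-Hep1, and 13 rose and 6 fell of 27 in the SKBR3-labelled libraries, with medians of -0.02, -0.16 and 0.18. CRTAP, a partner of the prolyl 3-hydroxylase that modifies collagen, was lower in all 4 comparisons, at 242 ± 6.19 against 333 ± 5.56 TPM in A375 batch 2, 35.4 ± 2.17 against 72.4 ± 9.13 TPM in A375 batch 1, 110.2 ± 12.2 against 209.5 ± 3.502 TPM in SK-Hep1 and 133 ± 12.4 against 239 ± 5.96 TPM in the SKBR3-labelled libraries, siGCDH first in each. The proline hydroxylase P3H2 fell in SK-Hep1 to 11.5 ± 0.969 TPM, against 39.5 ± 2.96 TPM with siControl. PCOLCE, an enhancer of procollagen cleavage, was lower in A375 batch 1 (35.0 ± 3.46 against 70.9 ± 6.496 TPM) and higher in the SKBR3-labelled libraries (33.8 ± 1.32 against 18.6 ± 1.01 TPM).

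Of the matrix proteases and their inhibitors, 6 rose and 4 fell of 22 in A375 batch 2 (background 17.9% and 15.7%), 3 rose and 11 fell of 21 in SK-Hep1 (background 37.3% and 18.2%), and 4 rose and 5 fell of 17 in the SKBR3-labelled libraries (background 47.3% and 14.7%), with medians of -0.01, -0.21 and -0.05. TIMP3, a matrix-bound inhibitor, fell in A375 batch 2 to 256 ± 7.30 TPM, against 415 ± 4.44 TPM, in A375 batch 1 to 118 ± 7.85 TPM, against 244 ± 28.3 TPM, and in the SKBR3-labelled libraries to 10.8 ± 0.931 TPM, against 20.7 ± 1.39 TPM with siControl. TIMP2 fell in SK-Hep1 to 133 ± 4.15 TPM, against 318 ± 6.18 TPM. Of the focal adhesion genes, 8 rose and 10 fell of 31 in A375 batch 2, 9 rose and 10 fell of 32 in SK-Hep1, and 9 rose and 6 fell of 31 in the SKBR3-labelled libraries, with medians of 0.04, 0.04 and 0.05. TNS3, a tensin that binds integrin tails, was lower in A375 batch 2 (12.7 ± 1.83 against 26.6 ± 0.456 TPM) and in SK-Hep1 (20.2 ± 1.09 against 66.7 ± 2.58 TPM). Of the other matrix receptors, 5 rose and 6 fell of 19 in A375 batch 2, 8 rose and 6 fell of 17 in SK-Hep1, and 6 rose and 1 fell of 17 in the SKBR3-labelled libraries, with medians of -0.14, -0.03 and 0.14. CD44, the hyaluronan receptor, rose in A375 batch 2 to 866 ± 44.8 TPM, against 438 ± 20.3 TPM, and the syndecan SDC3 fell to 6.95 ± 1.08 TPM, against 33.0 ± 1.53 TPM.

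In the list of YAP and TGF-β responsive genes, 9 rose and 6 fell of 29 in A375 batch 2 (background 17.9% and 15.7%), 12 rose and 9 fell of 27 in SK-Hep1 (background 37.3% and 18.2%), and 7 rose and 6 fell of 25 in the SKBR3-labelled libraries (background 47.3% and 14.7%), with medians of 0.10, 0.01 and -0.01. CCN2, a matricellular target of both pathways, rose in A375 batch 2 to 74.6 ± 1.90 TPM, against 35.9 ± 2.67 TPM, and fell in SK-Hep1 to 6.87 ± 0.695 TPM, against 21.9 ± 0.270 TPM with siControl. Of the other basement membrane genes, 2 rose and 1 fell of 11 in A375 batch 2, 2 rose and 2 fell of 8 in SK-Hep1, and 3 rose and 2 fell of 10 in the SKBR3-labelled libraries, with medians of -0.17, 0.07 and 0.22. FBLN1, an adaptor of laminin and fibronectin networks, was higher in SK-Hep1 (34.6 ± 0.583 against 16.98 ± 0.452 TPM) and in the SKBR3-labelled libraries (80.9 ± 4.05 against 47.3 ± 1.47 TPM). Of the other matrix glycoproteins and proteoglycans, 4 rose and 6 fell of 25 in A375 batch 2, 9 rose and 7 fell of 23 in SK-Hep1, and 14 rose and 2 fell of 20 in the SKBR3-labelled libraries, with medians of -0.03, 0.28 and 0.57. SPP1, the integrin ligand osteopontin, rose in A375 batch 2 to 21.2 ± 0.735 TPM, against 8.68 ± 1.499 TPM, whereas TGFBI fell to 27.4 ± 1.17 TPM, against 54.4 ± 6.80 TPM. In A375 batch 1, where 1.18% of all tested genes were called higher and 6.73% lower, the 7 lists gave between 0 and 5 calls each.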

How the data were processed

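Gene levels in 24 RNA-seq libraries (8 groups of 3) were analysed as the authors deposited them, in TPM. The submitters' processing notes name STAR 2.7.0d, RSEM 1.3.1, cutadapt 2.3 and the build hg38. Which annotation was used, and whether counting used the strand, is not given in the sources used here. Because read depth cannot be had from TPM, it is unknown and no counting interval is given.

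Gene types and spans came from GENCODE 29, and promoters from RefSeq. limma 3.58.1 (R 4.3.3) was fitted with an intensity trend to log2(TPM + 1), for genes whose mean over the fitted libraries reached 1 TPM: 6 for siGCDH against siControl, 12 for a difference of effects between lines, 9 for siControl levels. P-values were adjusted over all tested genes (Benjamini-Hochberg) and called under 0.05. These are the main settings, and a gene said to pass or not to pass did so under them unless another setting is named. A fold on this scale understates changes of low genes. The code was tested on simulated data. Alternatives were other pseudocounts, filters and scalings, no trend, robust fitting, a replicate block, a joint fit, removed ribosomal rows and each library left out. The genes, lists and tests were chosen with earlier results of these data known. Named by rule were the 6 glycoproteins, ITGB1, ITGAV, neighbouring pairs, the 5 largest called rises and falls per comparison reaching 5 TPM, genes called in all 3 lines or in opposite directions, the 4 largest differences of effect, the 3 highest levels per family, and up to 2 called genes per further list by smallest adjusted p. The other genes are given to account for the set. Among the 67 genes, 1 is counted but not reported here by name.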

Additional observations from a re-analysis of the deposited data

Results flagged for a closer look

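The results here are differences of the siGCDH effect between lines or batches, on the log2(TPM + 1) scale, each tested with limma (adjusted p under 0.05 over all genes). Their causes were not tested.

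A375 batch 2 minus SK-Hep1 gave -1.98 for COL13A1, -1.87 for COL16A1, -1.29 for COL27A1, -1.26 for COL4A1 and -1.02 for COL4A2, so these collagens had the higher effect in SK-Hep1. ITGB2 gave -2.34 in the same direction, but in SK-Hep1 it reached the minimum of 1 TPM through the siGCDH libraries alone, its siControl mean being under it, so that the effect there had to be positive. FBN1 (1.64), ITGA5 (1.35) and ITGB8 (2.39) had the higher effect in A375.

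SK-Hep1 minus SKBR3-labelled gave -1.45 for COL1A1, -1.75 for COL5A1, -0.81 for COL6A2, -2.21 for FBN1, -1.25 for ITGA4 and -3.85 for ITGB4. COL27A1 (1.92) and ITGB2 (1.88) had the higher effect in SK-Hep1. For ITGB2 the limit above holds here too, since its effect in SK-Hep1 had to be positive. It was under the minimum within the SKBR3-labelled libraries.

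A375 batch 2 minus SKBR3-labelled gave -0.84 for COL4A1, -0.62 for COL4A2, -1.35 for COL9A2, -1.66 for ITGAV, -3.16 for ITGB4 and -1.69 for LAMB2, all with the higher effect in the SKBR3-labelled libraries.

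A375 batch 2 minus batch 1 gave 0.87 for ITGA5, 0.56 for ITGB1BP1 and -0.86 for LAMC1. The batches differ in kit and in the share of ribosomal rows, and these cannot be told apart from the batch.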

How the results depend on the processing

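Over 214 gene values and 3879 alternatives, 3722 kept their side of the threshold, and sign changes without a call in either setting count among these. Another 132 lost the call, 22 gained it and 3 changed sign where the main or the alternative value was called. The last were, all under quantile normalization, COL4A1 (-0.011) and COL4A6 (-0.15) in the SKBR3-labelled libraries and SPARC in SK-Hep1 minus SKBR3-labelled (0.10). The cause was not tested.

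The count of 2 genes in A375 batch 1 was 1 without the filter, 0 without the trend and 0 with the replicate block, and 0 with any library left out. The count of 3 between the A375 batches was 1 without the filter, with quantile normalization, with median scaling, with the replicate block and with ribosomal rows removed, 0 without the trend, and 0 to 4 with a library left out. The other counts stayed within 1.5 times. With a library left out they were 19 to 20 in A375 batch 2, 38 to 41 in SK-Hep1 and 26 to 32 in the SKBR3-labelled libraries.

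Replicate numbers were not shown to pair the wells: in no line did every same-numbered pair correlate above 0.1, and not every sample correlated best with its own number. With the replicate block the counts were 19 in A375 batch 2, 40 in SK-Hep1 and 31 in the SKBR3-labelled libraries.

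Depth is unknown, 3 wells a group limit the precision, and SKBR3-labelled directions of small size depend on the scaling.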
